A study of Mus musculus with 18 samples.

Results

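Interscapular brown fat of C57BL/6 mice was compared between fetal life and weaning when the mothers had eaten the control diet. The comparison used 3 fetal libraries and 3 libraries of weaned mice aged 3 weeks, 6 of the 18 libraries of the series, taken by their age and diet labels and not by any measured value. All dams, those of both groups, received the control diet while pregnant and while nursing, and the labels name no allele or drug. The fetal and weaned libraries of mothers fed a fish oil diet, 3 and 3, served as a second measurement of the same age step. The labels do not give the gestational day, the sex, the litter, the composition of the diets, or whether fat of several animals was pooled. The p-values therefore measure the spread between these libraries, which may be technical. Birth, nursing and growth all lie between the groups and cannot be told apart.

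Brown fat burns fuel to make heat. Its adipocytes hold many mitochondria, and uncoupling protein 1 (Ucp1) lets protons return across the inner membrane without making ATP. The depot forms before birth from mesenchymal precursors shared in part with skeletal muscle, and noradrenaline from sympathetic nerves drives it through beta adrenergic receptors and cyclic AMP. Between birth and weaning the pup leaves the thermoneutral uterus, lives on fat-rich milk and then turns to solid, carbohydrate-rich food.

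Libraries held 9434710 to 13971209 sense-strand counts in the fetal group and 14855294 to 17943071 in the weaned group. The mitochondrial 16S ribosomal RNA, mt-Rnr2, took 47.3% to 51.8% of these counts in fetal and 58.4% to 61.0% in weaned libraries. Levels below are in CPM, counts divided by the library's size after TMM scaling, which sets the libraries so that most genes do not shift, and log2 fold changes are weaned over fetal. The scaling matters here: by library size alone the median of all genes was -0.60 instead of 0.0026, 7821 genes were called instead of 4106, and 9.64% instead of 52.7% of the calls were higher. Every change is thus relative to the typical gene, and lists whose balance turned over by library size alone are named beside their counts. Among the named genes that rose, Cox8b, Fabp4, Slc25a4 and Vegfa lay below 0 by library size alone. A count of 3 in a library, the floor of detection, equals 0.174 to 0.271 CPM, which covers counting error only.

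Brown adipocyte genes were high in all 6 libraries. Ucp1 stood at 2399, 2200.1 and 1723 CPM in the fetal and 2368, 2589 and 4490.2 CPM in the weaned libraries, so the tissue label held at both ages. Cidea, a lipid droplet protein of brown fat, stood at 529.8, 557 and 614 CPM and 560.3, 401 and 286 CPM. The libraries were not alike in other respects. Xist, transcribed from the inactive X of females, stood at 192, 333 and 1.98 CPM in fetal and 1.24, 0.329 and 0.94 CPM in weaned libraries, while the Y-linked Ddx3y stood at 65.3, 34.8 and 99.2 CPM and 96.4, 110.4 and 92.6 CPM. Fetal libraries 1 and 2 held both transcripts, and the weaned libraries held Ddx3y with little Xist, so transcripts of the sexes were mixed differently at the 2 ages, and the part of this in the other results was not tested. Weaned library 3 stood apart in muscle genes (below). The biological coefficient of variation was 8.24% among the fetal and 22.3% among the weaned libraries, and the first principal component, which split the ages, held 68.3% of the variance.

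Of 13326 genes with enough counts, 4106 (30.8%) passed an adjusted p of 0.05 in edgeR's quasi-likelihood test, 2165 higher (16.2%) and 1941 lower (14.6%) in weaned brown fat. A change of at least 2-fold was added in 1952 of them (14.6% of genes tested). These percentages are the background against which each list below should be read. In 6435 genes (48.3%) the ranges of the groups did not overlap, among them 4079 of the called genes. Falls outnumbered rises in the lists of mitosis, skeletal muscle, neutrophils and mast cells, imprinted growth and matrix assembly, and rises outnumbered falls in those of lipid storage, lipid synthesis, antigen presentation and the mitochondrial genome. In bulk tissue such as this, fewer cells of a type and less RNA per cell cannot be told apart.

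**Figure D1:**
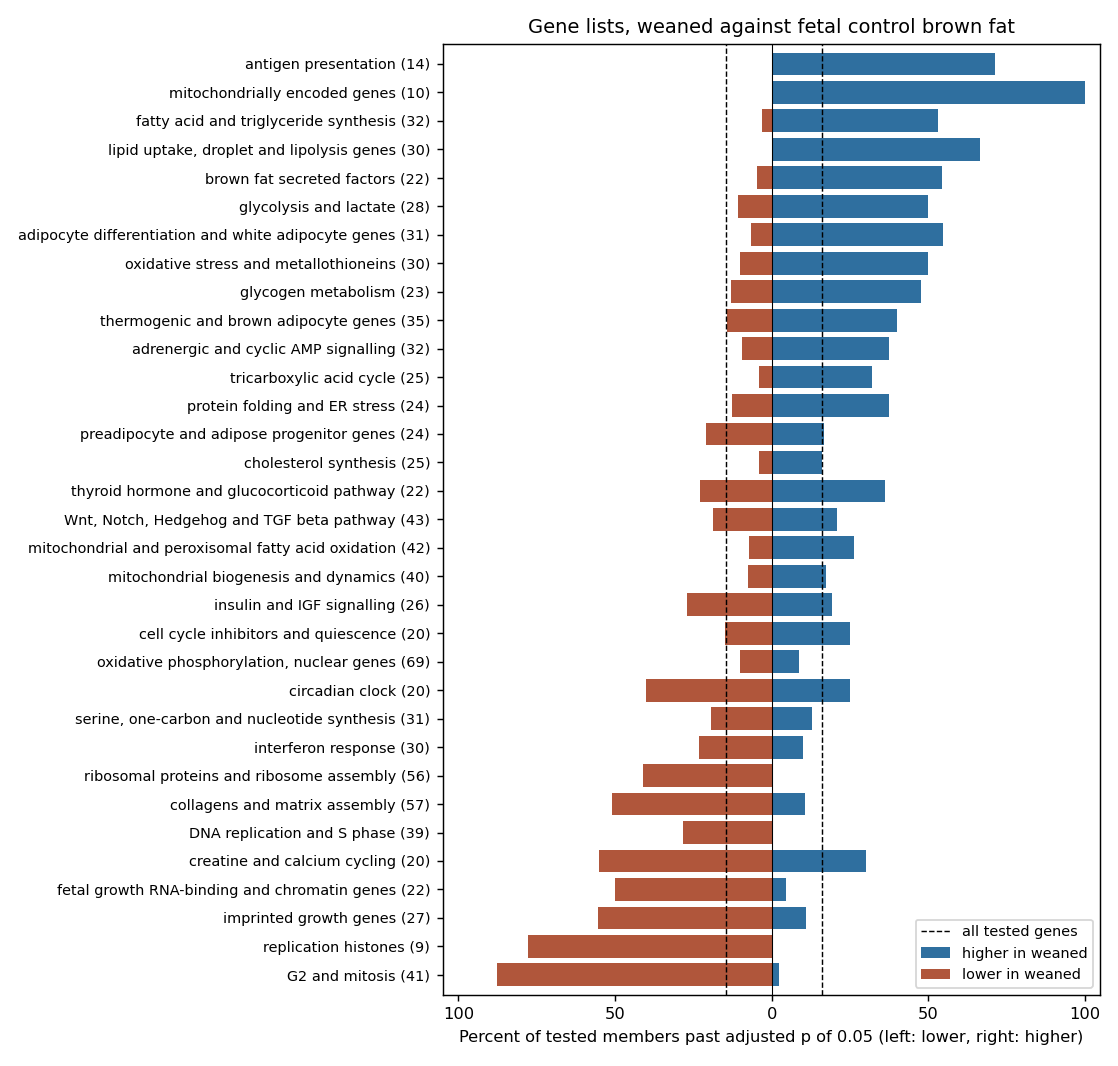
Percent of the tested members of each gene list that passed an adjusted p of 0.05, lower in weaned to the left and higher to the right, with the number tested in brackets; dashed lines mark all tested genes (16.2% higher, 14.6% lower). Lists are ordered by median log2 fold change: G2 and mitosis (36 of 41 lower) lies at the bottom, and all 10 mitochondrially encoded genes were higher.

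Imprinted growth genes were mostly lower in weaned fat. Imprinted genes are expressed from 1 parental copy, and many form a network that promotes growth before birth and is turned down after it. Of 27 members tested, 15 were lower and 3 higher, with a median of -1.73 against 0.0026 for all genes. H19, a long noncoding RNA transcribed beside Igf2, stood at 641, 567 and 662 CPM in the fetal libraries and 12.4, 13.6 and 25 CPM in the weaned ones. That is 36.7-fold lower (log2 -5.20 ± 0.27 SE, adjusted p = 8.76e-06), with no overlap of the groups. Dlk1, the preadipocyte factor that holds precursors back from differentiating, stood at 50.2, 48.8 and 53.7 CPM before and 1.17, 1.48 and 1.41 CPM after, 37.6-fold lower (adjusted p = 8.55e-07). The libraries of an age lay close together in Dlk1, and weaned library 3 was the highest of its age in H19.

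Igf2, the fetal insulin-like growth factor, stood at 14.3, 15.6 and 17.4 CPM against 0.964, 0.247 and 0.548 CPM, 26.9-fold lower (adjusted p = 2.69e-05). Mest, a lipase-like protein of growing fat, fell from 43.6, 36.8 and 42.8 CPM to 1.03, 0.823 and 1.8 CPM (log2 -5.06 ± 0.23, adjusted p = 4.22e-06). Meg3, the maternally expressed RNA of the Dlk1 locus, stood at 98, 95 and 109.6 CPM and 14.1, 15.5 and 14.7 CPM, 6.84-fold lower (adjusted p = 2.96e-06), so both parental transcripts of that locus were lower after birth. The fetal and weaned values of these genes lay far outside each other's range. Some members did not pass the test although their groups did not overlap. Gnas, which encodes the stimulatory G protein subunit, stood at 2737, 2801 and 2899.7 CPM and 2560.02, 1556 and 2333 CPM (adjusted p = 0.119). Peg3 stood at 453, 461 and 377 CPM and 310.1, 258 and 77.2 CPM (adjusted p = 0.0936). Both passed without weaned library 3 (log2 -0.44 for Gnas and -0.59 for Peg3). Nnat, an imprinted membrane protein, was higher in weaned fat (adjusted p = 0.0384), with 0.902, 0.753 and 0.907 CPM against 1.31, 12.8 and 2.43 CPM and its highest value in library 2. Nnat did not pass in the unstranded counts (log2 0.57) or without weaned library 2 (log2 1.13). Snrpn, with 0.902, 1.04 and 0.577 CPM against 2.07, 2.22 and 2.27 CPM, and Dcn were the other 2 that rose.

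Postnatal growth signals changed less evenly. Of 26 insulin and IGF signalling genes, 5 rose and 7 fell (2 and 16 by library size alone), with a median of -0.015. Igf1, the growth hormone-dependent successor of Igf2, stood at 49.6, 55.3 and 48.9 CPM in fetal and 15.8, 38.3 and 24.3 CPM in weaned fat and thus also fell (log2 -0.98 ± 0.27, adjusted p = 0.0235). The growth hormone receptor Ghr rose 2.53-fold (adjusted p = 0.0101), and Tbc1d4, which gates insulin-driven glucose transporter movement, rose 2.4-fold (adjusted p = 0.00505). Irs2, an insulin receptor substrate, fell from 93.5, 111 and 102 CPM to 28.7, 43.8 and 19 CPM (adjusted p = 0.00158). Pappa, a protease that frees IGF from its binding proteins, fell 3.55-fold (adjusted p = 0.000182).

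RNA-binding and chromatin genes of fetal growth showed 11 lower and 1 higher member among 22 tested (median -0.85). Igf2bp3, an RNA-binding protein of the fetal growth program, stood at 7.13, 9.67 and 8.08 CPM and then 0.344, 0.411 and 0.392 CPM, 21.7-fold lower (adjusted p = 1.7e-05). Its relative Igf2bp1 had 1.89, 1.97 and 1.24 CPM in the fetal libraries and 1 count in all weaned libraries together, so no fold is given. Ezh2, the Polycomb methyltransferase, fell 1.88-fold (adjusted p = 0.00552), whereas Cbx7, a Polycomb reader of the methyl mark, rose from 0.812, 1.22 and 1.07 CPM to 8.54, 8.97 and 4.7 CPM (adjusted p = 0.000478).

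The genes of G2 and mitosis were lower almost throughout. Of 41 tested, 36 were lower and 1 was higher (87.8% lower against 14.6% of all genes), with a median of -2.70. Mki67, the Ki-67 proliferation antigen, stood at 103, 89.8 and 88.7 CPM in fetal libraries and 10.4, 7.9 and 8.3 CPM in weaned ones, 10.6-fold lower (log2 -3.40 ± 0.14, adjusted p = 2.96e-06). Top2a, the topoisomerase that untangles sister chromosomes, stood at 22.9, 22.6 and 23.3 CPM and 2.34, 1.15 and 1.8 CPM, 13-fold lower (adjusted p = 1.32e-05). Prc1, which bundles microtubules of the dividing spindle, stood at 8.48, 7.24 and 7.83 CPM and 0.827, 0.329 and 0.157 CPM (log2 -4.09, adjusted p = 0.000195; -4.96 without weaned library 1). In all these genes the lowest fetal value exceeded the highest weaned value several times over. Smc4, a condensin subunit used outside mitosis too, fell less, from 77.3, 82.8 and 78.1 CPM to 39.9, 36.6 and 29.4 CPM. Pttg1, the securin that guards sister chromatid separation, was the member that went the other way, with 5.41, 5.79 and 6.51 CPM against 13.6, 14.4 and 14.3 CPM (2.38-fold higher, adjusted p = 0.000368).

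The promoters of these genes were read for the elements known to bind the DREAM complex and NF-Y, which control many late cell cycle genes. They are the cell cycle genes homology region (CHR, TTTGAA) and the CCAAT box (CCAAT), read on both strands. The windows run from 250 bases before to 50 bases after the RefSeq start (GRCm38.p6), and capitals mark every match of either motif or of its reverse complement. Top2a, Mki67 and Prc1 are shown for the genes that fell, and Pttg1 for the member that rose. They lie at chr11:99024140-99024439 (minus strand), chr7:135716330-135716629 (minus), chr7:80294201-80294500 (plus) and chr11:43425932-43426231 (minus).
Top2a: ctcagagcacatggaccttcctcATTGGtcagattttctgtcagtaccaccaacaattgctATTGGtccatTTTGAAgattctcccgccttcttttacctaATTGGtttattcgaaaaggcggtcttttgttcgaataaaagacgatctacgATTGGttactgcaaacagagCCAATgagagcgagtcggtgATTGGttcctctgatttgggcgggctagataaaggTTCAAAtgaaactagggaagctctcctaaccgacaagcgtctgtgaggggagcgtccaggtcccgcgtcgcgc
Mki67: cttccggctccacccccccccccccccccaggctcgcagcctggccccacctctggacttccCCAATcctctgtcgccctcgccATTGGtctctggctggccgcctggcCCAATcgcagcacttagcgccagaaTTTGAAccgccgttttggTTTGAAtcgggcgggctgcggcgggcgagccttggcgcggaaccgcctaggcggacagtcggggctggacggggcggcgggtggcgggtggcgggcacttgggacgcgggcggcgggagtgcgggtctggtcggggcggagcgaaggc
Prc1: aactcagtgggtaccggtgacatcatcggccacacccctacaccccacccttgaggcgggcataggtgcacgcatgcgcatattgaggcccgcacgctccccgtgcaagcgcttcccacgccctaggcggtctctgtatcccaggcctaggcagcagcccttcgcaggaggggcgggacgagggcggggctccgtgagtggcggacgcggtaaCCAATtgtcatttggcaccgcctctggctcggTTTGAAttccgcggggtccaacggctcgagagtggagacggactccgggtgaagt
Pttg1: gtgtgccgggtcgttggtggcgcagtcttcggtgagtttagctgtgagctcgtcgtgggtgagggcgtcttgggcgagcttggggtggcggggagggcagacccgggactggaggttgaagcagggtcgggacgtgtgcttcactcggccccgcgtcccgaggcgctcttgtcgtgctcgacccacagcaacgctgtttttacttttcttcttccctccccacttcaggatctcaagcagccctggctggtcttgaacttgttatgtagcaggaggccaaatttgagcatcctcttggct
The Top2a window held 2 CHR and 6 CCAAT matches, that of Mki67 2 and 3, and that of Prc1 1 and 1, while the window of Pttg1 held 0 of either. Windows without either motif were not confined to Pttg1: that of Birc5, a mitotic gene that fell, also held 0 of either. So did those of Nuf2, Nusap1 and Mad2l1 of the same list. The windows shown are thus examples and no contrast by direction.

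Of the 36 mitotic genes that fell, 31 had an entry, with 33 promoters in all. The CHR was in 78.8% of these promoters, the CCAAT box in 81.8% and both in 69.7%. Among the 12218 promoters matched to tested genes the same shares were 11.9%, 37.6% and 4.80%, and over all 32851 promoters in the table they were 17.9%, 37.4% and 6.95%. For all genes that fell at least 2-fold (825 promoters) the CHR was in 18.8% and both motifs in 9.70%, and for those that rose at least 2-fold (946 promoters) in 10.9% and 4.12%. The E2F motif of S phase genes (TTTCCCGC or TTTGGCGC) was in 1 of the 33 mitotic promoters. That is 3.03%, beside 2.82% of the promoters matched to tested genes and 1.56% of all promoters. A match describes the letters in a window and not binding. The mitotic shares describe a list of late cell cycle genes, many of which these complexes are known to control. Whether the motifs go with the fall was not tested, as listed members that did not fall were not counted apart.

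Of 39 S phase genes, which copy the DNA, 11 were lower and 0 higher, with a median of -0.61. Ccne2, the cyclin that opens S phase, went from 16.5, 22.2 and 14.9 CPM to 4.41, 3.7 and 2.43 CPM (adjusted p = 0.000275). Brca1, a repair gene induced in S phase, fell 8.82-fold (adjusted p = 0.000176). Rrm1, a subunit of the enzyme that makes deoxynucleotides, did not pass (log2 -0.054 ± 0.15). Of 9 tested histone genes, 7 were lower and 0 higher. Hist1h1b, a linker histone, stood at 5.68, 4.23 and 5.69 CPM and 0.413, 0.576 and 0.0783 CPM (adjusted p = 0.000413). Histone genes have near-identical copies and mostly lack poly(A) tails, so their listing is uncertain. Among 20 cell cycle inhibitors 5 rose and 3 fell (1 and 13 by library size alone), Cdkn2c rising 3.21-fold (adjusted p = 0.00117) and Btg1 falling 2.4-fold (adjusted p = 0.00396). Lamin B1 (Lmnb1), a nuclear envelope protein of dividing cells, fell from 19.7, 17.8 and 16.7 CPM to 4.48, 4.28 and 4.78 CPM, while lamin A (Lmna) stood at 27.7, 33.5 and 28 CPM and 25.2, 33.3 and 27.3 CPM (adjusted p = 0.78).

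Ribosomal protein and ribosome assembly genes showed 23 lower and 0 higher members among 56 tested, all by modest steps (median -0.41). Rpl4, of the large subunit, stood at 120.2, 129 and 126 CPM and 84.4, 84.8 and 77.8 CPM, 1.52-fold lower (adjusted p = 0.002). Nucleolin (Ncl), needed for ribosomal RNA processing, stood at 527, 546 and 471 CPM and 405, 395 and 369 CPM (adjusted p = 0.0169). The groups did not overlap in either gene, although many ribosomal genes have processed copies that can share reads.

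Matrix genes of growing connective tissue fell. Of 57 collagens and matrix assembly genes, 29 were lower and 6 higher (median -0.57). Fbn2, the fibrillin of embryonic microfibrils, stood at 64.9, 68.7 and 63.1 CPM in fetal and 1.1, 2.39 and 1.18 CPM in weaned fat, 42.2-fold lower (log2 -5.41 ± 0.24, adjusted p = 3.7e-06). Fbn1, the fibrillin that persists in adults, fell 2.6-fold, from 150.01, 164 and 167 CPM to 61.2, 57.6 and 66.2 CPM (adjusted p = 5.06e-05). Versican (Vcan), a swelling proteoglycan of immature matrix, stood at 104, 129 and 115 CPM and 6.68, 7.16 and 5.41 CPM, 18.1-fold lower (adjusted p = 2.11e-06). Col3a1, a fibrillar collagen, fell only 1.58-fold. Among the matrix proteins that rose were Sparc, from 277, 267 and 269 CPM to 408, 439 and 457 CPM (adjusted p = 0.00112), and decorin (Dcn), from 43.8, 44.6 and 44.3 CPM to 76.9, 92.6 and 57 CPM (adjusted p = 0.0086). By library size alone 44 of these genes were lower and 0 higher.

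Among 43 genes of the Wnt, Notch, Hedgehog and TGF beta pathways, 9 rose and 8 fell. The Hedgehog effectors Gli1 and Gli2 fell 6.52-fold and 7.26-fold (adjusted p = 0.00359 and 0.00197), and the ligand Tgfb2 fell 3.46-fold (adjusted p = 0.00258). The inhibitory Smads rose: Smad7 stood at 3.7, 3.07 and 2.23 CPM and then 7.37, 5.43 and 15.6 CPM (adjusted p = 0.014), and Smad6 rose 3.55-fold (adjusted p = 0.0016). Of 24 preadipocyte genes, 4 rose and 5 fell. Pdgfra, a receptor of adipose progenitors, stood at 37.4, 37.5 and 39 CPM and 27.8, 29.7 and 19.8 CPM (adjusted p = 0.0234), and the progenitor antigen Cd34 fell 1.79-fold (adjusted p = 0.00202). The list as a whole did not lean as Dlk1 did: its median was 0.15. By library size alone 5 of the pathway genes rose and 21 fell, and 1 and 13 of the preadipocyte genes.

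**Figure D2:**
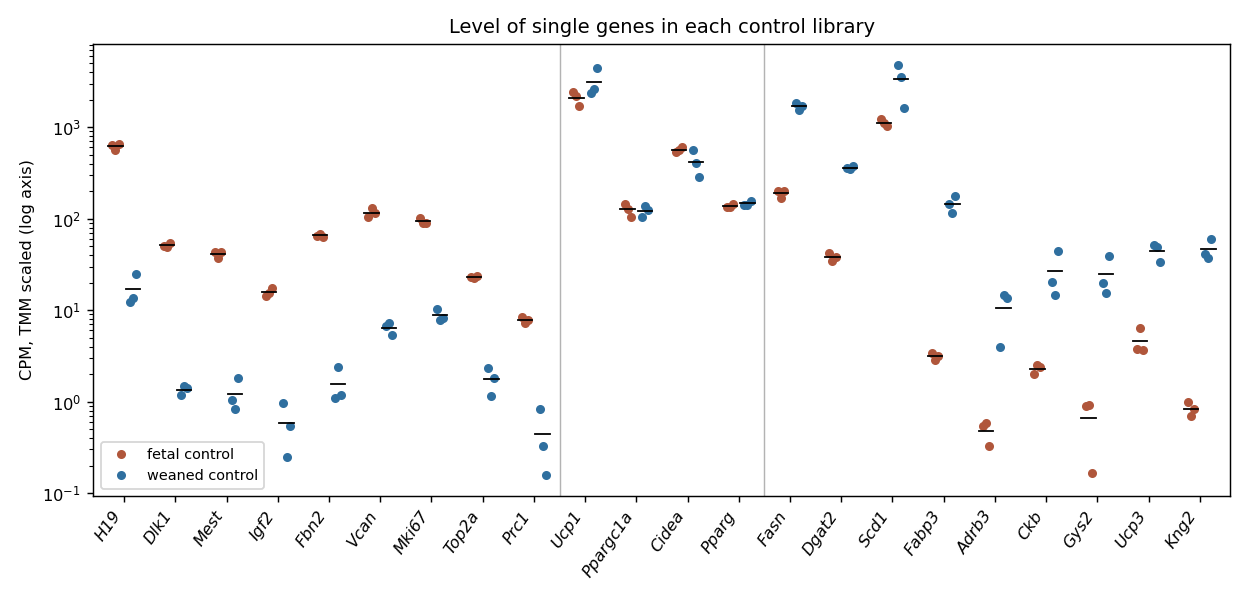
Level of single genes in each library, in TMM-scaled CPM on a log axis, fetal control in red and weaned control in blue; black bars are group means. From left to right stand genes that fell (H19 from 567 or more to 25 or less), 4 brown fat genes that did not pass the test, and genes that rose (Fabp3 from 3.43 or less to 114 or more).

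Several core heat-making genes did not pass the test between the ages. Of 35 thermogenic and brown adipocyte genes, 14 rose (40.0%), 5 fell and 16 did not pass, with a median of 0.44. Ucp1 (values above) had a log2 change of 0.58 ± 0.24 (adjusted p = 0.0991), weaned library 3 being the highest of the 6. Without weaned library 1 it was 0.76 (adjusted p = 0.048), and with no filter on low counts Ucp1 passed at 0.58 (adjusted p = 2.5e-06). Without weaned library 3 Ucp1 did not pass. The fit with no filter also passed the muscle gene Myh4 (adjusted p = 2.9e-30), which was high in weaned library 3 alone (below). Its small p-values therefore need care. The master coactivator Ppargc1a stood at 146, 129 and 104 CPM and 105, 137 and 123 CPM (log2 -0.051 ± 0.15), so the ages overlapped; by library size alone Ppargc1a was lower (log2 -0.64, adjusted p = 0.0037). Prdm16, which sets brown fat identity, stood at 14.2, 15.1 and 13.5 CPM and 18, 14.8 and 26.7 CPM (adjusted p = 0.111), and passed with no filter (adjusted p = 0.022). Pparg, the adipocyte master regulator, stood at 136, 133 and 144 CPM and 142, 142 and 156 CPM (adjusted p = 0.481). Dio2, which makes active thyroid hormone inside the cell, stood at 231, 178 and 200.1 CPM and 93.5, 93.8 and 438 CPM, so weaned library 3 lay above and the other weaned libraries below all fetal values. Without that library the log2 change of Dio2 was -1.11 (adjusted p = 5.1e-06). These tests do not show that the levels are equal.

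Other thermogenic genes rose. Elovl3, a cold-induced fatty acid elongase, stood at 3.79, 2.9 and 0.824 CPM in fetal and 16.6, 10.2 and 16.6 CPM in weaned fat, 5.78-fold higher (adjusted p = 0.00234). Acot11, a brown fat thioesterase, rose 19.5-fold (log2 4.29 ± 0.52, adjusted p = 0.000589), from 5.59, 5.39 and 6.35 CPM to 59.2, 65.5 and 214 CPM, and by 3.44 on the log2 scale without weaned library 3. Esrrg, a nuclear receptor for oxidative genes, rose from 9.65, 11.5 and 9.89 CPM to 33.5, 35 and 29.2 CPM (adjusted p = 6.64e-05). Cox8b, the brown fat and muscle form of a cytochrome oxidase subunit, rose 1.38-fold (adjusted p = 0.0135). Among the regulators that fell without overlap were Ppargc1b, the relative of Ppargc1a, from 140.4, 139 and 154 CPM to 108, 104 and 113 CPM (adjusted p = 0.0121), Irf4, a fasting and cold effector, from 107, 206 and 81 CPM to 40.9, 45.4 and 10.4 CPM (adjusted p = 0.0179), and Tbx15 and Zfp516, with log2 changes of -0.98 and -0.89 (adjusted p = 0.0108 and 0.0017). By library size alone the balance turned, with 8 rising and 12 falling.

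On the nerve-signalling side, the beta3 adrenergic receptor rose most among the listed genes. Adrb3, the receptor by which noradrenaline drives lipolysis and heat, stood at 0.541, 0.579 and 0.33 CPM in the fetal and 3.93, 14.5 and 13.6 CPM in the weaned libraries, 22.1-fold higher (log2 4.41 ± 0.57, adjusted p = 0.000855). Of 32 adrenergic and cyclic AMP genes, 12 rose and 3 fell (median 0.29), against 3 and 13 by library size alone. Rgs2, which dampens G protein signals, fell from 193, 205 and 174 CPM to 103, 80.8 and 47.8 CPM (adjusted p = 0.00441). Nr4a1, an early target of cyclic AMP, rose from 2.44, 1.74 and 3.05 CPM to 10.3, 8.39 and 8.23 CPM (adjusted p = 0.000659), a call that was lost in the fit of all 18 libraries (adjusted p = 0.13).

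Hormone-handling genes shifted in both directions, with 8 of 22 rising and 5 falling (5 and 11 by library size alone). The thyroid hormone receptor Thrb rose from 14.7, 13.7 and 13.8 CPM to 45.9, 57.7 and 36.4 CPM, 3.32-fold (adjusted p = 0.000219), while Thra stood at 55, 59.3 and 65.2 CPM and 69.7, 58.4 and 63.3 CPM (adjusted p = 0.563). Hsd11b1, which regenerates active glucocorticoid, stood at 2.62, 2.14 and 3.13 CPM and 37.2, 48.3 and 10.8 CPM, 12.2-fold higher (adjusted p = 0.00138). The thyroid hormone transporter Slc16a10 rose 3.24-fold (adjusted p = 0.000135). The glucocorticoid target Tsc22d3 fell (log2 -0.65, adjusted p = 0.0145).

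Fat storage genes rose broadly. Of 32 genes of fatty acid and triglyceride synthesis, 17 rose (53.1% against 16.2% of all genes) and 1 fell, with a median of 0.89. By library size alone 11 rose and 7 fell. Fasn, the fatty acid synthase, stood at 201, 167 and 202 CPM in fetal and 1819, 1532 and 1707 CPM in weaned fat, 8.88-fold higher (log2 3.15 ± 0.13, adjusted p = 2.96e-06). Dgat2, which adds the last acyl chain of triglyceride, stood at 42.1, 34.6 and 37.9 CPM and 354, 349 and 373 CPM, 9.38-fold higher (adjusted p = 2.11e-06), the weaned libraries lying close together. Scd1, the main adipose stearoyl-CoA desaturase, stood at 1223, 1109.7 and 1027 CPM and 4841, 3574 and 1606 CPM (adjusted p = 0.00798). Scd2, the form of brain and early development, was the member that fell, from 23.3, 18.8 and 21.4 CPM to 7.58, 4.94 and 15.1 CPM (adjusted p = 0.0258). Pnpla3, a lipid droplet acyltransferase and lipase induced by feeding, rose 8.1-fold (adjusted p = 0.000195). Pck1, which supplies glycerol for triglyceride, did not pass (742, 952 and 898 CPM and 1889, 2067 and 773 CPM), but did so without weaned library 3 (log2 1.20).

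Of 30 genes of lipid uptake, droplets and lipolysis, 20 rose and 0 fell (median 0.78), and by library size alone 8 rose and 3 fell. Fabp3, the fatty acid carrier of heart and oxidative tissues, stood at 3.43, 2.84 and 3.13 CPM and 146, 114 and 175 CPM, 46.3-fold higher (log2 5.54 ± 0.20, adjusted p = 2.11e-06). Fabp5, the carrier of skin and macrophages, overlapped between the ages at 20.5, 17.4 and 19.4 CPM and 10.3, 19.4 and 20.4 CPM. Perilipin 1 (Plin1), the gatekeeper of the fat droplet, rose from 173, 179.7 and 138 CPM to 498, 587 and 404 CPM (adjusted p = 0.000249). Lpl, which takes fat from lipoproteins, rose 2.19-fold (adjusted p = 0.00317), and the fatty acid transporter Cd36 1.75-fold (adjusted p = 0.00136). The lipase Pnpla2 stood at 1514, 1583 and 1612 CPM and 2041, 2160.1 and 1297 CPM (adjusted p = 0.37), while its inhibitor G0s2 rose 3.45-fold (adjusted p = 0.0347), with fetal library 3 far above the other fetal libraries (17, 13.1 and 60.5 CPM). Without that library its log2 change was 2.80 instead of 1.79.

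White adipocyte and differentiation genes rose in 17 and fell in 2 of 31 (median 0.56). Lep, the satiety hormone leptin, stood at 0.361, 0.521 and 0.165 CPM in fetal and 2.07, 7.32 and 16.5 CPM in weaned fat (log2 4.51 ± 0.82, adjusted p = 0.0042), with a wide spread between the weaned libraries. Its log2 change was 3.63 without weaned library 3, and limma-voom did not call Lep (adjusted p = 0.075). Fabp4, the adipocyte fatty acid carrier, rose 1.48-fold (adjusted p = 0.0225). Adiponectin (Adipoq) stood at 138, 129.6 and 141 CPM and 181, 221 and 91.9 CPM (adjusted p = 0.459), and without weaned library 3 it rose (log2 0.57, adjusted p = 0.00038). Klf5, an early differentiation factor, fell 4.05-fold (adjusted p = 0.00271). By library size alone 8 rose and 6 fell.

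Nuclear genes of the respiratory chain had a median near that of all genes. Of 69 tested, 6 rose and 7 fell, 18.8% called against 30.8% of all genes, and the median was -0.038; by library size alone 0 rose and 58 fell. Ndufab1, an acyl carrier protein of complex I, rose from 28.3, 25.3 and 28 CPM to 38.8, 44.7 and 76.9 CPM (adjusted p = 0.0145), and Atpif1, the inhibitor of ATP synthase, fell from 11.1, 11.3 and 11.5 CPM to 6.2, 6.83 and 6.58 CPM (adjusted p = 0.00291). The transcripts of the mitochondrial genome moved otherwise. All 10 tested were higher (median 0.90), and 4 of them by library size alone. Transcript mt-Nd2, of complex I, stood at 4084, 3524 and 3285 CPM and 10875, 10288 and 10311 CPM (adjusted p = 5.86e-05), and mt-Co1, of complex IV, rose 1.76-fold (adjusted p = 0.00158). Genes mt-Co2, mt-Co3 and mt-Atp8 are listed at 0 in all 6 libraries and were not tested. Also untested were mt-Nd4l and mt-Atp6, with 0 counts in the fetal and 1 and 5 in the weaned libraries together. The 10 tested are thus a part of the 15 listed, and why the others are near 0 was not tested.

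Fuel-burning pathways changed at single steps. Of 25 tricarboxylic acid cycle genes 8 rose and 1 fell (2 and 14 by library size alone). Ogdh, the oxoglutarate dehydrogenase, rose from 361, 363 and 389.8 CPM to 961, 881 and 764 CPM (adjusted p = 0.000166), the pyruvate carrier Mpc1 rose 2.98-fold (adjusted p = 0.000707), and citrate synthase (Cs) was the member that fell, from 594, 581 and 588 CPM to 477, 459 and 453 CPM (adjusted p = 0.0186). Of 42 fatty acid oxidation genes 11 rose and 3 fell (4 and 25 by library size alone). Hadha, of the trifunctional protein, stood at 1142, 1118 and 1131 CPM and 1138, 1011 and 857 CPM (adjusted p = 0.297), and Acadm, the medium-chain dehydrogenase, at 673, 607 and 643 CPM and 712, 693 and 557 CPM (adjusted p = 0.874). Phyh, a peroxisomal enzyme for branched fatty acids, rose 2.16-fold (adjusted p = 0.00137). Of 40 genes of mitochondrial biogenesis and dynamics 7 rose and 3 fell (0 and 29 by library size alone), a share of rises (17.5%) close to that of all genes.

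Sugar-handling genes rose as well. Of 28 glycolysis genes 14 rose and 3 fell (5 and 5 by library size alone). The insulin-dependent glucose transporter Slc2a4 stood at 48.3, 53.6 and 52.4 CPM and 106, 128 and 204 CPM, 2.83-fold higher (adjusted p = 0.00157), and the ubiquitous transporter Slc2a1 fell from 5.32, 4.87 and 6.26 CPM to 3.58, 3.21 and 3.21 CPM (adjusted p = 0.0245). Phosphofructokinase Pfkp rose 4.32-fold (adjusted p = 0.00515), weaned library 3 the highest, without which the log2 change was 1.43 instead of 2.11. Glycogen genes counted 11 higher and 3 lower among 23 (3 and 6 by library size alone). Gys2, the liver form of glycogen synthase, stood at 0.902, 0.927 and 0.165 CPM and 19.7, 15.3 and 38.8 CPM, 37-fold higher (log2 5.15 ± 0.51, adjusted p = 0.000225). Pygl, the liver form of glycogen phosphorylase, stood at 20.1, 23.5 and 27.1 CPM and 144, 199 and 246 CPM, 8.32-fold higher (adjusted p = 3.27e-05), while the muscle form Pygm fell 3.24-fold (adjusted p = 0.00454).

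In the creatine and calcium cycling list 6 of 20 rose and 11 fell. Ckb, the creatine kinase proposed to act in a creatine heat cycle, stood at 1.98, 2.49 and 2.39 CPM and 20.3, 14.8 and 44.6 CPM, 11.6-fold higher (adjusted p = 0.000588), with a log2 change of 3.52, or 2.93 without weaned library 3. Alpl, the phosphatase assigned to the same cycle, rose from 1.44, 0.927 and 0.247 CPM to 5.79, 4.36 and 8.23 CPM (adjusted p = 0.00249). The calcium pump Atp2a2 rose 1.93-fold (adjusted p = 0.00326) and the ryanodine receptor Ryr2 5.67-fold (adjusted p = 0.0159). Ryr2 stood at 1.62, 1.16 and 0.907 CPM and 6.82, 1.81 and 12.3 CPM; its log2 change of 2.51 was 1.86 without weaned library 3, and limma-voom did not call it (adjusted p = 0.082). The members lowest in weaned fat are genes of skeletal muscle: Ckm fell from 17, 10.6 and 18.5 CPM to 0, 0.658 and 3.37 CPM, and sarcolipin (Sln) had 1.53, 1.04 and 1.48 CPM in the fetal and 0 counts in the weaned libraries. DESeq2 did not call Ckm (adjusted p = 0.068), and its log2 change of -3.54 was -5.61 without weaned library 3 and -2.90 without weaned library 1. The muscle list moved with these genes.

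**Figure D3:**
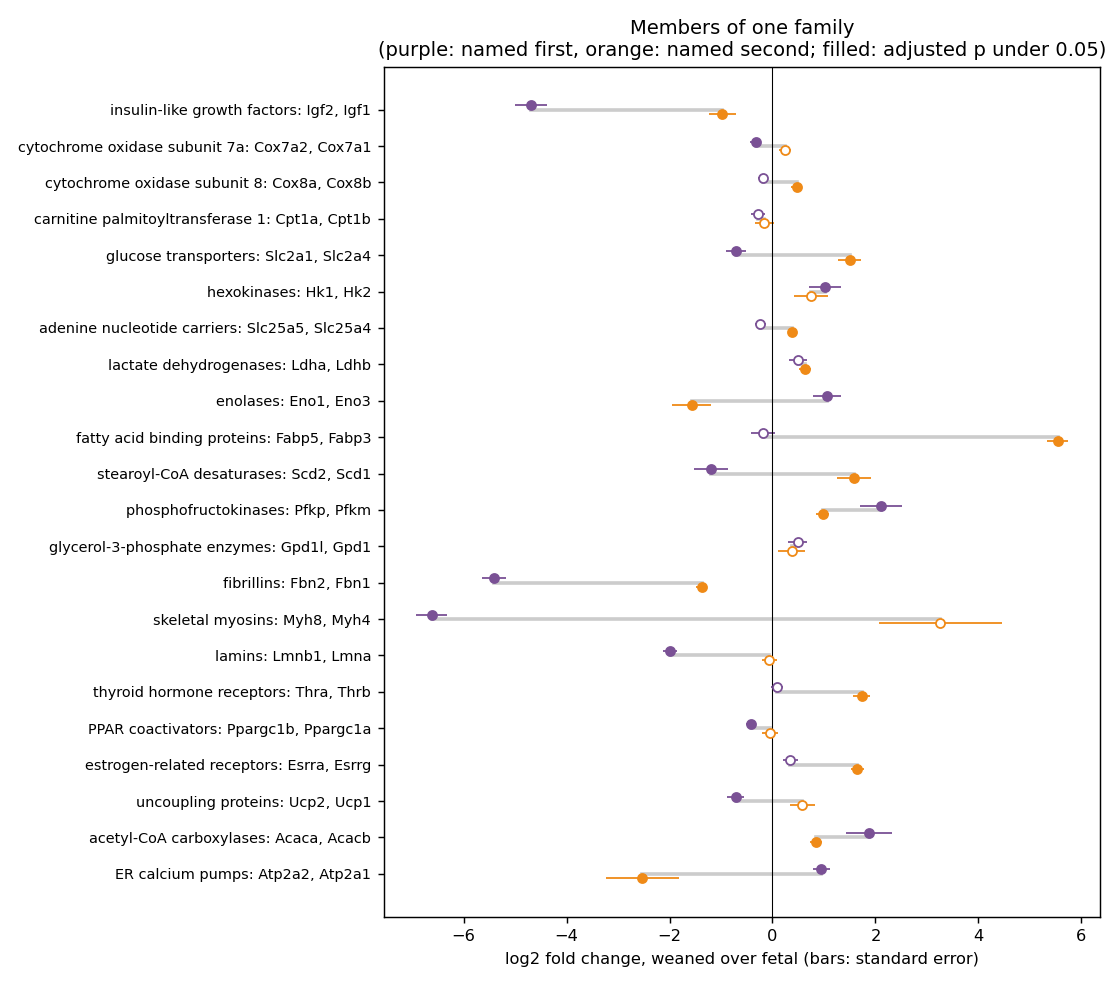
Change of the members of 22 gene families with both members tested, as log2 fold change of weaned over fetal with its standard error; filled points passed an adjusted p of 0.05. Fabp3, Slc2a4 and Scd1 lie to the right while their relatives Slc2a1 and Scd2 lie to the left, and Fabp5 (open point) did not pass.

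Members of a family could part. Of the 26 families read, both members were tested in 22. Acetyl-CoA carboxylases rose together, Acaca 3.66-fold and Acacb 1.79-fold (adjusted p = 0.0144 and 0.00125). Acaca stood at 61.4, 56 and 58.1 CPM and 95.4, 146 and 400.2 CPM, and rose 2.07-fold without weaned library 3. Enolases parted, Eno1, the ubiquitous form, rising 2.09-fold and Eno3, the muscle form, falling 3.03-fold (adjusted p = 0.0186 and 0.0148). Calcium pumps did likewise, the muscle form Atp2a1 standing at 18.4, 10.9 and 16.7 CPM and 0.276, 1.15 and 6.58 CPM (log2 -2.53, or -4.45 without weaned library 3). Ucp2, an uncoupling protein homologue of many cell types, fell 1.64-fold (adjusted p = 0.0117), and Ucp3, the homologue of muscle and brown fat, rose from 3.79, 6.37 and 3.71 CPM to 51.9, 49 and 33.4 CPM (adjusted p = 6.6e-05). The adenine nucleotide carrier Slc25a4 rose 1.3-fold (adjusted p = 0.0126), and its relative Slc25a5 had a log2 change of -0.24 ± 0.11 (adjusted p = 0.136).

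Secreted factors of brown fat rose in 12 and fell in 1 (Igf1) of 22. Kng2, a kininogen gene, had the highest fold change of the named genes: it stood at 0.992, 0.695 and 0.824 CPM and 41.1, 37.4 and 59.6 CPM, 55-fold higher (log2 5.80 ± 0.26, adjusted p = 4.09e-06). Apoe, the lipoprotein ligand, rose 3.31-fold, although weaned library 3 (382, 361 and 113 CPM) lay near the fetal range of 77.6, 98.8 and 82.4 CPM. Vegfa, the vessel growth factor, rose 1.33-fold (adjusted p = 0.0164). Among 30 genes of oxidative stress 15 rose and 3 fell (10 and 12 by library size alone). Gpx3, the secreted glutathione peroxidase, rose from 129, 151 and 116 CPM to 554, 605 and 254 CPM (adjusted p = 0.00217), and Gstm1, a glutathione transferase, rose 6-fold (adjusted p = 2.48e-05). Heme oxygenase Hmox1, which breaks down heme, fell from 53.1, 70.6 and 57.6 CPM to 7.3, 7.16 and 9.56 CPM (adjusted p = 1.29e-05). The cytochrome P450 genes among the highest risers belong to families with close copies: Cyp2b10 stood at 3.97, 5.33 and 4.53 CPM and 114, 163 and 98.2 CPM, and Cyp2e1 at 2.71, 1.56 and 2.72 CPM and 63, 278 and 18.5 CPM. The log2 change of Cyp2e1 was 5.71, or 4.17 without weaned library 2.

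Immune genes did not move as a block. Antigen presentation genes rose in 10 and fell in 0 of 14 (71.4% higher, median 1.07), 5 and 2 by library size alone. The class I heavy chain H2-K1 stood at 7.04, 7.7 and 7.01 CPM and 22, 39.1 and 23.7 CPM (adjusted p = 0.0005), its light chain B2m rose 1.95-fold (adjusted p = 0.00551), and the class II chaperone Cd74 rose from 0.541, 0.695 and 0.907 CPM to 5.23, 6.01 and 2.98 CPM (adjusted p = 0.000917). H2 genes resemble each other closely, so their split is uncertain. Of 30 interferon response genes, 3 rose and 7 fell. Macrophage genes counted 2 higher and 6 lower among 18, Mrc1, the mannose receptor of resident macrophages, falling 2.41-fold (adjusted p = 0.000451) and lysozyme Lyz2 rising 2.83-fold (adjusted p = 0.000428). The summed level of the 18 tested macrophage genes was 123 to 149 CPM in fetal and 81.9 to 121 CPM in weaned libraries.

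Neutrophil and mast cell genes fell in 12 of 13 tested (0 higher, median -3.94). The summed level of the 13 tested was 75.3 to 91.9 CPM in fetal and 9.54 to 13.6 CPM in weaned libraries. Of the defining markers of these cells, the granule protease Elane had 0 counts in all 6 libraries. S100a9, a neutrophil calprotectin subunit, stood at 13.4, 12.9 and 12 CPM and 0.0689, 0.0823 and 0.235 CPM (log2 -6.55, adjusted p = 4.72e-06; -7.24 without weaned library 3). Cpa3, the mast cell carboxypeptidase, stood at 23.3, 27.3 and 21.3 CPM and 1.38, 1.4 and 1.41 CPM, 17.2-fold lower (adjusted p = 2.96e-06). Only 3 of 30 lymphocyte genes had enough counts to be tested. Erythroid genes rose in 6 and fell in 3 of 16: Alas2, the heme synthesis enzyme of red cells, rose from 24.1, 24.3 and 18.8 CPM to 75.5, 86.1 and 106 CPM (adjusted p = 7.72e-05), and the transferrin receptor Tfrc fell from 233, 242 and 283 CPM to 21.8, 50.5 and 139 CPM (adjusted p = 0.0302; log2 -1.84, or -2.81 without weaned library 3). Each untested erythroid member with any counts had fewer in the weaned libraries. Klf1, Kel and Rhag, for example, had 14, 14 and 10 counts in the fetal and 0, 3 and 2 in the weaned libraries together.

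Skeletal muscle genes fell in 30 of 35 tested, with 0 higher and a median of -3.37. The summed level of the 35 tested was 1126 to 1861 CPM in the fetal libraries. It was 101 and 99.2 CPM in weaned libraries 1 and 2 and 369 CPM in weaned library 3. Of the 41 listed symbols, 1 had 0 counts throughout. Titin (Ttn), the giant sarcomere spring, stood at 901, 555 and 843 CPM and 12.9, 20.6 and 133 CPM (adjusted p = 0.00795), a log2 change of -3.79, or -5.52 without weaned library 3. Myh8, the perinatal myosin heavy chain, stood at 225, 129 and 198 CPM and 2.55, 1.48 and 1.49 CPM (adjusted p = 4.22e-06), and Myh3, the embryonic form, fell from 38, 19.3 and 42.8 CPM to 0.413, 0.329 and 0.627 CPM (adjusted p = 2.95e-05). Myh4, an adult fast form, stood at 2.07, 0.405 and 0.907 CPM and 0.964, 2.3 and 27.4 CPM (adjusted p = 0.0691), its highest value being weaned library 3. The part of muscle RNA in the falls of Pygm, Eno3, Ckm and Atp2a1 was not tested. Nor was its part in the falls of genes outside this list, such as the imprinted genes and Ncam1. Without weaned library 3 the muscle count was 32 lower and 0 higher, with a median of -5.03, and that of G2 and mitosis 39 lower and 1 higher. Of 41 list medians, 18 moved there by at least the spread of the list's mean between libraries of an age. The thermogenic median was 0.22 instead of 0.44, and the erythroid median 0.17 instead of 0.75. In the tricarboxylic acid cycle list 15 genes rose instead of 8.

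**Figure D4:**
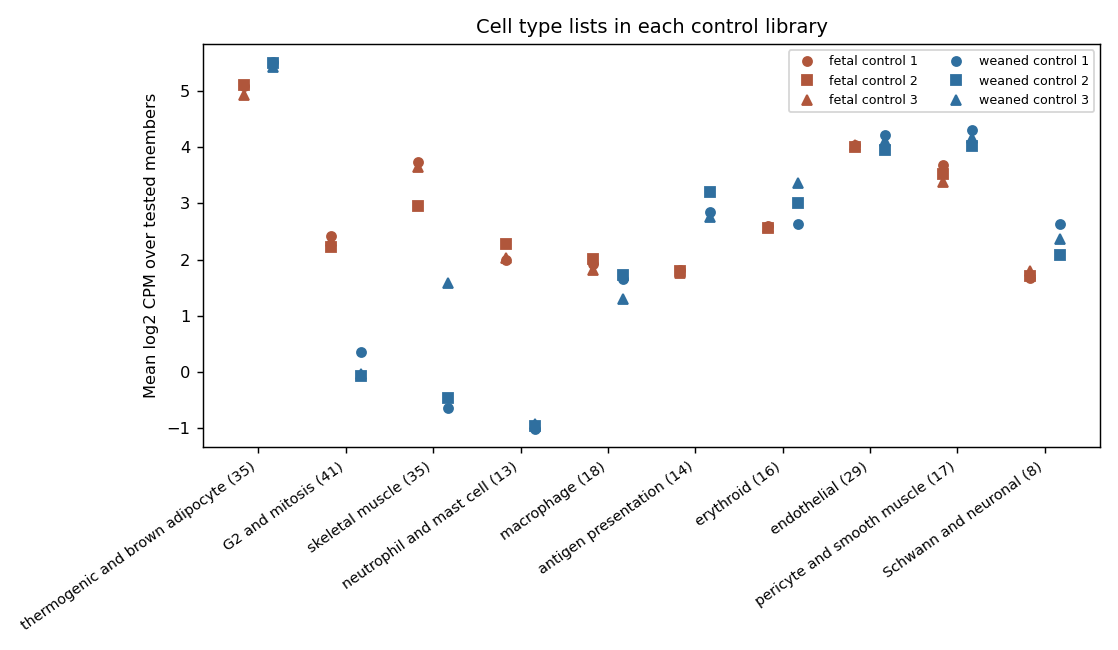
Mean log2 CPM over the tested members of each list in each library, fetal in red and weaned in blue, with 1 shape per library number (numbers do not pair libraries); the number of members is in brackets. Muscle genes are lower in all 3 weaned libraries, with library 3 (1.58) above the other two, and mitotic, neutrophil and mast cell genes are lower in every weaned library than in any fetal one.

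Vessel and nerve genes changed member by member. Endothelial genes rose in 9 and fell in 5 of 29 (3 and 12 by library size alone). Flt1, a VEGF receptor, rose from 70.5, 64.5 and 64.5 CPM to 199, 148 and 215 CPM (adjusted p = 0.000219), and the apelin receptor Aplnr, a marker of sprouting vessels, fell from 14.8, 13.6 and 15.3 CPM to 5.44, 4.36 and 4.07 CPM (adjusted p = 0.000195). Pericyte and smooth muscle genes rose in 6 and fell in 1 of 17 (1 and 5 by library size alone). Rgs5, the pericyte regulator of G protein signals, stood at 48.5, 45 and 41.6 CPM and 432, 326 and 466 CPM, 9.05-fold higher (log2 3.18 ± 0.15, adjusted p = 5.45e-06). Of 26 listed Schwann and neuronal genes, 8 were tested, of which 5 rose and 1 fell (2 and 2 by library size alone). The neuronal markers Th, Dbh, Tubb3, Syn1, Snap25, Stmn2 and Uchl1 had too few counts to be tested. Mbp, myelin basic protein, rose from 3.79, 2.95 and 4.95 CPM to 12.8, 7.16 and 12.1 CPM (adjusted p = 0.00463), and the neural adhesion molecule Ncam1 fell 2.61-fold (adjusted p = 0.00885). Among 20 clock genes 5 rose and 8 fell, Nr1d1 rising 3.31-fold and Npas2 falling 3.45-fold (adjusted p = 0.0143 and 0.00444); the hour of collection is not given for either age.

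Further genes stood out by size or by p alone. Capn6, a calpain relative without protease activity, stood at 20.5, 17.4 and 20.9 CPM and 0.0689, 0.247 and 0.235 CPM (adjusted p = 2.96e-06). Nrk, a kinase of embryonic tissues, stood at 39.6, 38.2 and 42.4 CPM and 1.03, 1.15 and 0.862 CPM, 39.5-fold lower, and shared the lowest adjusted p (8.55e-07) with Dlk1. Adam11 fell 15.4-fold (adjusted p = 2.96e-06) and Klhdc7a rose 6.91-fold (adjusted p = 2.96e-06), both with tight groups.

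The age step was measured a second time under the fish oil diet, in libraries that share none with the control comparison. There 4786 of 13668 genes passed (35%), 2523 higher and 2263 lower. Of the 4034 control calls tested there, 3936 had the same sign (97.6%), 2843 were called with it and 1 was called with the opposite sign. These 2843 are 69.2% of the control calls and 59.4% of the fish oil calls. Across the 13083 genes tested in both, Pearson's r of the changes was 0.869, a description across genes, which are not independent replicates. H19 changed by -5.20 under control and -4.81 under fish oil, Mki67 by -3.40 and -2.84, Adrb3 by 4.41 and 3.38, and Fabp3 by 5.54 and 4.26. Fasn changed by 3.15 and 5.79, a difference of 2.64 ± 0.43 that missed the threshold (adjusted p = 0.0568). Ucp1 changed by 0.58 and 1.57 (adjusted p of the difference = 0.477). Some named control calls did not pass under fish oil in edgeR's test. Among them, Hmox1 changed by -2.92 under control and 0.19 under fish oil (adjusted p = 0.877 under fish oil). Irs2, Nr4a1, Smad6, Gli2 and Pappa kept their sign under fish oil but did not pass (adjusted p = 0.0678 to 0.510). Fatty acid and triglyceride synthesis genes had a median of 0.89 under control and 2.52 under fish oil.

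**Figure D5:**
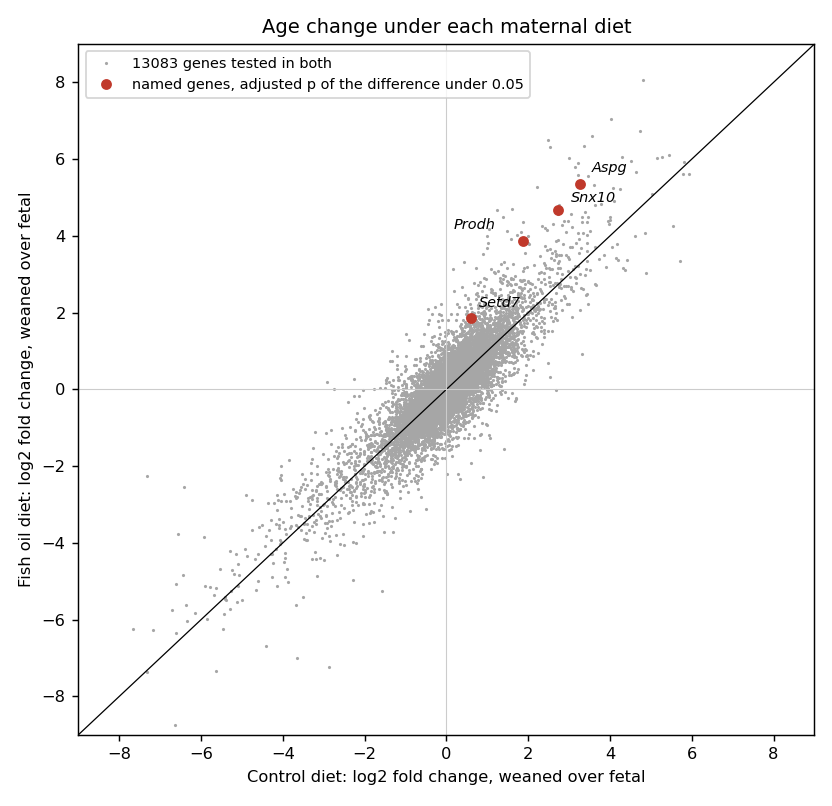
Each point is 1 of 13083 genes, with the log2 fold change of weaned over fetal under the control diet on the x axis and under the fish oil diet on the y axis; the line marks equal change. Red points are 4 of the 5 genes whose difference passed an adjusted p of 0.05, and these 4 lie above the line.

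In a single fit of the 12 fetal and weaned libraries of both diets, the difference between the age changes passed in 5 of 14413 genes (0.0347%), all with a higher change under fish oil; 1245 genes had an unadjusted p under 0.05. The 4 described here were singled out after their values were seen. Setd7, a lysine methyltransferase, had a log2 change of 0.60 under control and 1.85 under fish oil. Snx10, a sorting nexin, changed by 2.74 and 4.69, Prodh, the proline dehydrogenase, by 1.87 and 3.87, and Aspg, an asparaginase, by 3.26 and 5.35. Leaving out any 1 of 8 of the 12 libraries left 0 calls in the same edgeR test (948 to 1116 genes at an unadjusted p under 0.05), and leaving out weaned fish oil library 1 gave 293.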

How the data were processed

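Interscapular brown fat was frozen, its RNA was extracted with Trizol, and total RNA entered the TruSeq RNA library kit, per the labels' protocols. The deposited counts are whole-number reads per gene in 55416 gene rows, with 3 columns per library: unstranded, forward and reverse. STAR and Bowtie 0.12.2, and the mouse builds mm8 and mm9, are named in the submitters' processing notes without a role. The annotation and the counting settings are not given in the sources used here. The forward column was used, and forward counts made up 99.0% to 99.4% of the unstranded counts.

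The 3 fetal and 3 weaned control-diet libraries were fitted alone with edgeR 4.0.16 in R 4.3.3: filterByExpr left 13326 genes, TMM factors were 1.17 to 1.29 in fetal and 0.81 to 0.82 in weaned libraries, and the quasi-likelihood test was adjusted by the Benjamini-Hochberg method over all genes tested, with a threshold of 0.05. CPM values use the TMM-scaled library sizes, log2 CPM values of lists and principal components use a prior count of 2, and fitted log2 fold changes use edgeR's default. The difference between the age changes of both maternal diets was tested in 1 model of 12 libraries. The test was run on simulated data with known changes. No pair of libraries was close enough to be 1 library deposited more than once: the lowest chi-square per degree of freedom between replicates was 3.47.

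Symbols came from the gene name table and covered 52083 genes with 99.96% of the counts. The 44 gene lists (1342 symbols, 1089 tested) and the 26 gene families were chosen with earlier results of these data known, as was the comparison. Named genes are a chosen group of thermogenic, growth and family genes, the 12 highest and 12 lowest fold changes with at least 5 CPM, the 4 most abundant, 3 highest and 3 lowest members of each list, and the 8 lowest p-values. Some genes are not reported here. Promoters came from RefSeq (GRCm38.p6, 32851 windows) and matched 9544 of 13325 tested symbols. Alternatives were other scalings, filters, count columns and samples, DESeq2 1.42.0, limma-voom (limma 3.58.1), a replicate block, and leaving out each library. Adult libraries entered only the fit of all 18 libraries. Reads carry no molecular identifiers, so the floor of 3 counts covers counting error only.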

Additional observations from a re-analysis of the deposited data

Results flagged for a closer look

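In 5 genes the change from fetal to weaned life differed between the maternal diets, by a test of the difference itself (edgeR's quasi-likelihood test in 12 libraries, Benjamini-Hochberg adjusted). The difference, fish oil minus control on the log2 scale, was 1.26 for Setd7, 1.95 for Snx10 and 2.00 for Prodh (adjusted p = 0.0329 in each), with fish oil the higher in each. It was 2.11 for Aspg (adjusted p = 0.0462). No gene passed when 1 of 8 of the 12 libraries was left out, with 948 to 1116 genes at an unadjusted p under 0.05 in those fits.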

How the results depend on the processing

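The number of genes that changed with age was 4106, and 1952 at least 2-fold. By library size alone it was 7821, and 3463 at least 2-fold, with 9.64% of the calls higher instead of 52.7%, and 484 of the 4106 genes had the opposite sign. Leaving out 1 library gave 2356 to 5365 genes: 2493, 2505 and 2356 without fetal control library 1, 2 or 3, 3670, 3651 and 5365 without weaned control library 1, 2 or 3. The cause was not tested, beyond each such fit having fewer libraries. The other fits gave 3537 to 5071 genes: 4090 with DESeq2's size factors, 4020 without mitochondrial genes, 5071 with no filter, 3873 at a mean of at least 1 CPM, 3695 with DESeq2, 3992 with limma-voom, 4524 with all 18 libraries and 4180 with unstranded counts. Limma-voom with 1 weight per group, chosen after seeing the data, gave 4044.

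The replicate block gave 3537 genes, 3327 of them among the 4106. The labels give the groups the same numbers but no litter or day, and the deviations of same-numbered libraries correlated at -0.055, 0.055 and -0.025, so a shared number was not treated as a pair. With the block Cs, Lss and Slc2a1 did not pass and Peg3 did.

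For the difference between the diets, 5 genes passed: 8 passed by library size alone, 18 with all 18 libraries, 331 with no filter and 0 with the replicate block (1025 at an unadjusted p under 0.05). Leaving out 1 library gave 0 to 293 genes, with 293 without weaned fish oil library 1, 40 without weaned control library 3, 2 without fetal fish oil library 3, 1 without weaned fish oil library 3 and 0 without any 1 of the others. The cause was not tested.

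Of 138 named genes that passed, 30 did not pass without 1 or another fetal library, with adjusted p of 0.0502 to 0.123, in edgeR's test. They were Acaca, Apoe, Atp2a1, Col3a1, Cox8b, Cs, Eno1, Eno3, Fabp4, G0s2, Ghr, Igf1, Irf4, Lss, Ncl, Ndufab1, Nnat, Nr1d1, Pdgfra, Ppargc1b, Ryr2, Scd2, Slc25a4, Slc2a1, Smad7, Tbx15, Tfrc, Tsc22d3, Ucp2 and Vegfa. Without 1 weaned library, 6 did not pass (Atp2a1, Lss, Nnat, Scd2, Slc2a1 and Tfrc, adjusted p 0.0602 to 0.111). By library size alone the log2 change had the opposite sign for Acadm (-0.57), Cox8b (-0.13), Fabp4 (-0.038), Hspa5 (-0.46), Pparg (-0.51), Slc25a4 (-0.22), Thra (-0.51) and Vegfa (-0.20), as did Dio2 without weaned control library 3 (-1.11, up to 0.40 when another library was left out). Prdm16 passed without weaned library 2 (0.66), and Cidea without weaned library 1 (-0.72). In fits of all the libraries, calls were lost for Atp2a1, Ckm, G0s2 and Lss with DESeq2, for Lep, Nnat, Ryr2 and Xist with limma-voom, for Nnat and Xist with group weights, for Nnat in unstranded counts, for Lss with no filter, and for Col3a1, Lss, Ncl, Npas2, Nr4a1, Scd2 and Slc2a1 with all 18 libraries (adjusted p 0.0510 to 0.156 in the last). By library size alone 14 further named calls were lost with the sign kept: Acacb, Atp2a2, B2m, Calr, Cd36, Dcn, Eno1, G0s2, Ndufab1, Setd7, Snrpn, Sparc, mt-Co1 and mt-Rnr2. In that fit 9 named genes that had not passed were called lower with the sign kept: Cidea, Fabp5, Gnas, Hadha, Lmna, Peg3, Ppargc1a, Rrm1 and Slc25a5. Depth limits genes near the floor of 3 counts, where a library holds 0.174 to 0.271 CPM.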

Other observations

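Cholesterol synthesis genes did not move together. Of 25 tested, 4 rose and 1 fell (1 and 10 by library size alone), with a median log2 change of 0.13 against 0.0026 for all genes. Sc5d, a late desaturase of the pathway, stood at 4.33, 4.34 and 5.44 CPM in fetal and 21.5, 23 and 30.8 CPM in weaned fat (adjusted p = 5.65e-05 in edgeR's test), while lanosterol synthase (Lss) fell from 10.1, 9.85 and 9.89 CPM to 6.2, 7.49 and 7.83 CPM (adjusted p = 0.0398). Among 31 genes of serine, one-carbon and nucleotide synthesis, 4 rose and 6 fell (2 and 18 by library size alone), with a median of -0.13. Among 24 genes of protein folding and ER stress, 9 rose and 3 fell (1 and 12 by library size alone), with a median of 0.24. The chaperone calreticulin (Calr) stood at 289, 260 and 251 CPM and 365, 389 and 501 CPM (adjusted p = 0.00798), and Hspa5, the main ER chaperone, stood at 226, 192 and 206 CPM and 219, 224 and 241 CPM (adjusted p = 0.343).

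Skin and cartilage markers were low. Of 20 epidermis and hair genes only 1, Sbsn, was tested. Its level was 2.35 to 2.89 CPM in fetal and 0.470 to 1.89 CPM in weaned libraries. Of 23 cartilage and bone genes 4 were tested, of which 2 fell.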
